A study of Homo sapiens with 6 samples.

Results

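The 10 genes described here encode tubulin isotypes and stathmin. They were measured in FUJIOKA, an established human cell line of acute myeloid leukaemia. The genes were chosen by name: alpha tubulins TUBA1A, TUBA1B, TUBA1C and TUBA4A, beta tubulins TUBB, TUBB2A, TUBB4B and TUBB6, the gamma tubulin TUBG1, and STMN1. In a deposited table of 63236 genes, 17 rows carried these names and 10 of them had a level above 0. The other 7 rows were further gene IDs named TUBB, all listed at 0. RNA had been sequenced in 3 libraries of cells with a scrambled control shRNA (shNEG) and 3 of cells with shRNA against SPINK2 (shSPINK2), each expressed from a doxycycline-inducible lentiviral vector. The methods describe transduced cells of both kinds kept on doxycycline, but not for how long before RNA was taken. The labels name 2 SPINK2 shRNAs without saying which library carried which, whereas the study's methods describe 1, and nothing states that replicates came from separate cultures. The only value per gene used here is the authors' mean normalized read count over all 6 libraries, so shSPINK2 and shNEG are pooled in every level and no difference between them is given. These means have no replicate error.

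Microtubules are polymers of alpha and beta tubulin heterodimers, and they build the mitotic spindle and the tracks for transport inside the cell. Gamma tubulin sits in a ring complex that nucleates them, and stathmin binds free heterodimers and promotes disassembly. Vertebrates express several alpha and beta isotypes from separate genes, and the acidic carboxy-terminal tail of these proteins reaches out of the microtubule and is modified by enzymes. Tubulin mRNA is also degraded when free tubulin is in excess, through TTC5, which recognises the nascent amino-terminal peptide on the ribosome.

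The end of the coding sequence encodes the tail. The last 60 coding bases, stop codon included, are given below for TUBA4A and the beta tubulins, with the last sense codon in capitals (GENCODE 44 canonical transcripts, GRCh38/hg38, 5′ to 3′ on the coding strand).
TUBA4A (chr2:219250352-219250411, minus strand): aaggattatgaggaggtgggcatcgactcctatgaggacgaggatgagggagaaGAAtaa
TUBB (chr6:30724338-30724397, plus strand): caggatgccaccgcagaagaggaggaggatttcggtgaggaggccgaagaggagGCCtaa
TUBB2A (chr6:3153863-3153922, minus strand): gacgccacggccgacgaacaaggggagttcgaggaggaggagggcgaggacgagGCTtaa
TUBB4B (chr9:137243497-137243556, plus strand): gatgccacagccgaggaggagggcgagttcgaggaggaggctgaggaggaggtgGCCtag
TUBB6 (chr18:12326071-12326130, plus strand): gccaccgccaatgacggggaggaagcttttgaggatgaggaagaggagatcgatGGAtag
TUBA4A ends in a glutamate codon and so encodes no terminal tyrosine, the residue that detyrosinating enzymes remove. Among the beta tubulins, TUBB2A and TUBB4B were the closest pair, with 45 of 60 positions the same, and TUBB and TUBB6 the most distant, with 28. Each of the 5 tails shown held 10 or 11 acidic codons (GAA, GAG, GAC or GAT) among its 19 sense codons, against 4 in TUBG1 and 8 in STMN1.

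The opening of the coding sequence was more uniform. TUBA1A, TUBA1B and TUBA1C begin with atgCGTGAGTGC, with codons 2 to 4 in capitals, and TUBA4A with atgCGTGAATGC. TUBB and TUBB4B share atgAGGGAAATC, TUBB6 has atgAGGGAGATC and TUBB2A has atgCGCGAGATC. TUBG1 opens with atgCCGAGGGAA and STMN1 with atgGCTTCTTCT, which match none of the alpha or beta openings. The alpha and beta openings encode the peptide that the autoregulation pathway reads.

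Over the whole coding sequence, the 6 alpha pairs were 84.4% to 97.2% identical and the 6 beta pairs 80.9% to 87.2%. TUBA1A and TUBA1B were the closest pair at 97.2%. The encoded proteins were closer still, at 95.8% to 99.6% among alpha and 90.4% to 97.5% among beta tubulins. Between an alpha and a beta tubulin the coding identity was 54.3% to 55.8%, and the protein identity 39.7% to 41.4%. TUBG1 shared 31.3% to 34.1% of its residues with the alpha and beta tubulins.

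The level of the group was high. The 10 genes together held 0.534% of the summed mean over all genes, 205024 of 38425214 normalized reads. TUBB (ENSG00000196230.12, chr6:30717435-30725538) had a mean of 77026 and stood at rank 26 of the 32220 genes above 0. TUBA1B (ENSG00000123416.15, chr12:49127782-49131397) had a mean of 55634, at rank 49. STMN1 (ENSG00000117632.22, chr1:25884181-25906991) had a mean of 28157, at rank 145, and TUBB4B (ENSG00000188229.5, chr9:137241287-137243707) 19000, at rank 267.

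TUBA1C (ENSG00000167553.15, chr12:49188736-49274600), TUBA4A (ENSG00000127824.13, chr2:219249710-219277902) and TUBA1A (ENSG00000167552.13, chr12:49184686-49189080) followed with means of 8556, 6995 and 6400. These 7 genes lay above the 90th percentile of genes above 0. TUBG1 (ENSG00000131462.7, chr17:42609641-42615238) had a mean of 2555 and TUBB2A (ENSG00000137267.5, chr6:3153497-3157544) of 672. Per kilobase of merged exons TUBB2A had 231 reads, against a median of 114 for protein-coding genes above 0. By its mean, not divided by length, it stood at percentile 50.5 of those genes. TUBB6 (ENSG00000176014.12, chr18:12307669-12344320) was far below the others, with a mean of 29.2.

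Levels of different genes can be compared only per length, and the choice of length mattered for some of them. Divided by the merged exons of all annotated transcripts, TUBB had 18921 normalized reads per kilobase, TUBA1B 15566, TUBB4B 9327 and STMN1 4507. Divided by the canonical transcript, TUBA1B came out above TUBB, at 34194 against 30627 reads per kilobase, and STMN1 had 19513. Divided by the coding sequence alone, STMN1 was the highest of all, at 62992 reads per kilobase against 57828 for TUBB. The order of TUBB, TUBA1B and STMN1 is therefore not settled by these data. TUBG1, TUBB2A and TUBB6 kept the 3 lowest places, in that order, with each of these lengths.

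**Figure D1:**
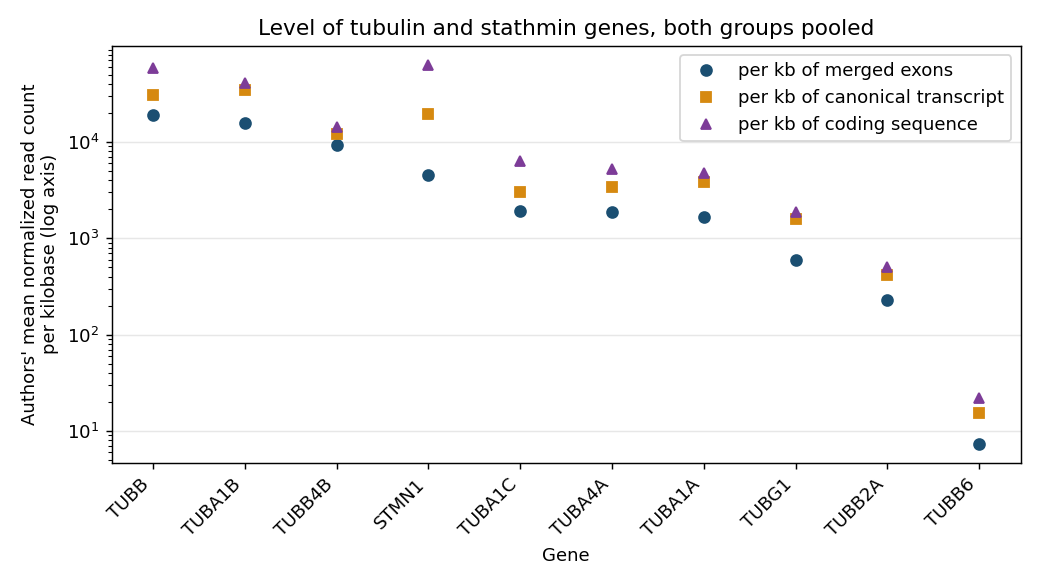
The authors' mean normalized read count per kilobase for each of the 10 genes, on a log axis, divided by the merged exons (circles), the canonical transcript (squares) or the coding sequence (triangles); both groups are pooled and there is no error bar. TUBB6 lies lowest at 7.40 to 21.8 reads per kilobase, and STMN1 moves most, from 4507 to 62992.

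Among the 9 alpha tubulin genes, TUBA1B carried most of the mRNA. Per kilobase of merged exons it held 73.9% of the family's summed level, against 9.12% for TUBA1C, 8.98% for TUBA4A and 7.95% for TUBA1A. TUBA1B stayed between 71.6% and 79.9% with every other length tried. The 3 minor isotypes changed places with the length used: TUBA1C was 1.02 times TUBA4A per kilobase of merged exons and 0.888 times per kilobase of canonical transcript. Of the remaining alpha genes only TUBA3D reached a mean of 10, with 16.4, and TUBA3C and TUBAL3 were listed at 0.

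Among the 9 beta tubulin genes, TUBB held 66.4% of the summed level per kilobase of merged exons and TUBB4B 32.7%. The share of TUBB4B, the broadly expressed isotype also used in cilia, ranged from 19.6% to 32.7% with the length used, and that of TUBB from 66.4% to 79.6%. TUBB2A made up 0.811% and TUBB6 0.0260%, so TUBB4B was 40.3 times TUBB2A and TUBB2A 31.3 times TUBB6 on this scale. With the level divided only by windows of 150 bases that no other gene holds, these ratios were 15.05 and 53.0, and the share of TUBB2A was 1.87%. TUBB1, the isotype of platelets and megakaryocytes, had a mean of 39.6, and TUBB2B, best known from developing neurons, one of 25.9. TUBB3, TUBB4A and TUBB8 were under 2.

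**Figure D2:**
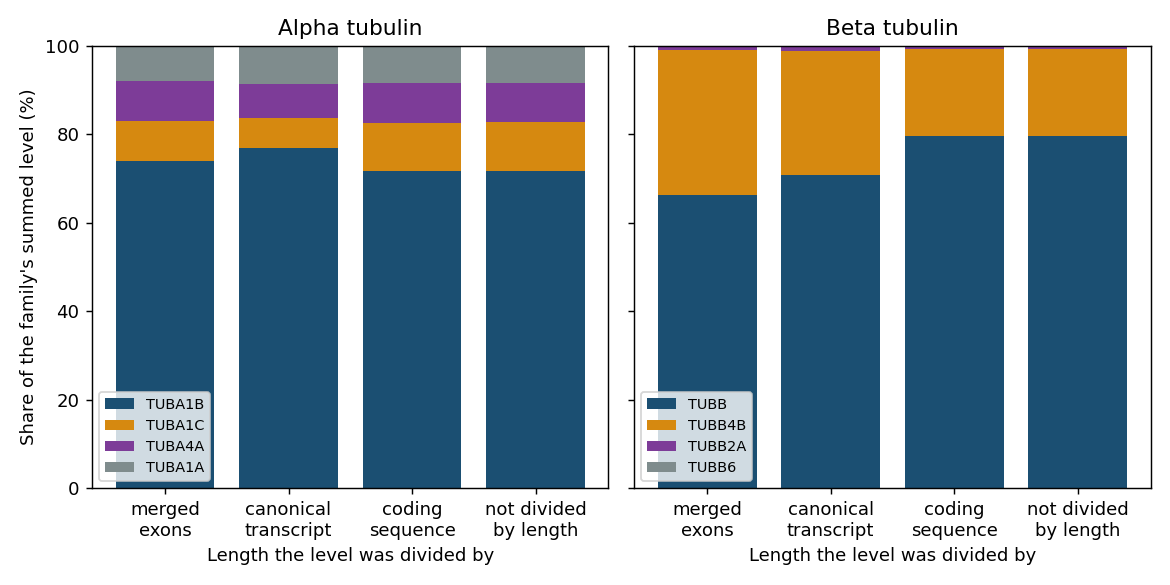
Share of each gene in the summed level of its family, in percent, for alpha tubulin (left) and beta tubulin (right); each bar is a different length by which the mean was divided, and the genes of the family outside the 10 are too low to be visible and were left out of the bars. TUBA1B makes up 71.6% to 76.9% of alpha and TUBB 66.4% to 79.6% of beta tubulin mRNA in the bars shown.

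The summed beta level was 1.35 times the summed alpha level per kilobase of merged exons, 1.26 times per kilobase of coding sequence and 0.972 times per kilobase of canonical transcript. Which family was the more abundant thus turned on the length used.

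TUBG1 was 7.01 times its close paralogue TUBG2 per kilobase of merged exons, 12.01 times per kilobase of canonical transcript and 10.8 times per kilobase of coding sequence. TUBG2 had a mean of 236, and delta tubulin TUBD1 and epsilon tubulin TUBE1, which are centriolar tubulins, had means of 222 and 572. Of the listed genes of the gamma tubulin ring complex, which nucleates microtubules, 9 of 9 had a mean of at least 10. Of these 8 had at least 1000, with TUBGCP3 the highest by mean at 9385. Per kilobase of merged exons MZT2B was above it, at 1610 against 1295. Over all 32220 genes above 0, 16131 reached 10 and 7000 reached 1000. Protein-coding genes lay higher than that. Among those above 0, TUBA3D, with a mean of 16.4, stood at percentile 25.2 and TTC5, with 1084, at 58.7.

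STMN1 was 32.6 times STMN3 per kilobase of merged exons, 105 times per kilobase of canonical transcript and 81.2 times per kilobase of coding sequence. STMN3, a stathmin best known from neurons, had a mean of 419, STMN4 of 0.503, and STMN2 was listed at 0. STMN1 thus accounted for nearly all stathmin family reads. All 7 tubulin folding cofactor genes, which assemble the heterodimer, had a mean of at least 10, with TBCA the highest at 4014. A mean of 10 is a low bar, since protein-coding genes above 0 had a median of 653. Among them TUBA8, with a mean of 6.63, stood at percentile 20.9 and TUBA3D, with 16.4, at 25.2. Of 22 genes listed for tubulin tail modification or acetylation, including HDAC6, SIRT2 and SVBP, 17 reached 10, with TTLL12 the highest at 8290. Most protein-coding genes above 0 also reached 10, so this count was not taken as a trait of the list. Whether each of their products acts on tubulin as an enzyme was not examined. Of the genes for microtubule binding and severing, 20 of 21 reached 10, with MAP4 the highest by mean at 9853 and MAP1B the exception at 4.48. Per kilobase of merged exons MAPRE1 was above MAP4, at 3220 against 657. TTC5, the reader of nascent tubulin, had a mean of 1084, and CNOT11, the highest of the autoregulation genes, 3985.

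Markers of the cell type gave the setting of these levels. Of the 8 myeloid and blast markers 7 had a mean of at least 10, led by LYZ at 44097. CD34 was at 19.6 and KIT at 0.666. Of the 8 markers of other cell types 2 had a mean of at least 10 and 6 were under 2, and COL1A1 was the highest at 149. The share over all genes above 0 was 16131 of 32220 reaching 10. It was higher among protein-coding genes above 0, where TUBA3D, with a mean of 16.4, stood at percentile 25.2. The part of cell type in the levels above was not tested.

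How many reads a tubulin gene can claim depends on how much of its sequence is its own. A window of 150 bases, the length of each read, was counted as shared when the same bases occur in a transcript of another gene. In the canonical transcript of TUBB2A, 48.7% of such windows were shared. In its coding sequence it was 60.1%, and over all its transcripts 714 windows also occurred in TUBB2B. For TUBA1B 19.1% of canonical windows were shared, all with TUBA1C or TUBA1A. TUBA1A shared 8.01%, TUBA1C 7.22%, TUBG1 6.24% with TUBG2, and TUBB 2.66% with the pseudogene TUBBP1. The reads were paired, and a mate outside the shared stretch is not part of this measure. With windows of 300 bases the canonical shares were 32.3% for TUBB2A, 2.03% for TUBA1B and 0% for TUBA1A.

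TUBA4A, TUBB4B, TUBB6 and STMN1 shared no window of this length. None of the 10 genes shared a window lying wholly in the 3′ UTR. The longest run of identical coding bases was 326, between TUBA1B and TUBA1C, longer than 1 read. How the counting treated reads with several matching places is not given in the sources used here. When the level was divided only by windows that no other gene holds, TUBB2A had 893 per 1000 windows against 416 per kilobase of canonical transcript.

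Pseudogenes added little. Of 40 rows named as tubulin or stathmin pseudogenes 15 were above 0, and their sum was 171, or 0.0835% of the summed mean of the 10 genes. The highest were TUBBP1 at 70.7, TUBAP2 at 57.9 and TUBBP2 at 26.7.

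Exons of neighbouring genes on the opposite strand cover part of several members, and whether reads were counted by strand is not given in the sources used here. AFG3L2, with a mean of 4197, overlaps 21.2% of the merged exon bases of TUBB6. STK16 covers 17.0% of TUBA4A, and TUBA1A and TUBA1C share 345 bases. TUBA1B-AS1, with a mean of 3.32, covers 44.0% of TUBA1B. That mean does not show how many reads TUBA1B may have lost in the shared stretch. Without strand, reads from such a stretch cannot be assigned to either gene.

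For genes with a mean under 60, the deposited mean carries enough digits to be solved for the whole reads in each of the 6 libraries. All 29 such genes that were searched had exactly 1 solution. The solution does not say which library had which shRNA, so the libraries are named L1 to L6 in order of rising size factor, and no groups are compared. The largest size factor was 4.85% above the smallest. SPINK2, the target of the shRNA, had 6, 53, 63, 56, 9 and 7 reads in L1 to L6, a mean of 32.3.

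TUBB6 was the only member low enough for this. It had 18 reads in L1 (95% exact Poisson interval 10.7 to 28.4), 38 in L2 (26.9 to 52.2), 30 in L3 (20.2 to 42.8), 32 in L4 (21.9 to 45.2), 27 in L5 (17.8 to 39.3) and 31 in L6 (21.1 to 44.0). These intervals cover counting error only. L1 was the lowest library and L2 the highest. Their intervals overlapped, which is not a test of whether these extremes differ. After division by size factor the highest library was 2.08 times the lowest, and 1.42 times without L1.

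The other weakly expressed family genes had similarly few reads. TUBB1 had 23, 59, 54, 33, 26 and 44 reads in L1 to L6. TUBB2B had 24, 25, 27, 31, 19 and 30, the flattest of the 4 genes plotted. TUBA3D had 9, 18, 16, 25, 16 and 15, and TUBA8 3, 6, 8, 14, 2 and 7. At such counts only large differences between libraries would be visible.

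**Figure D3:**
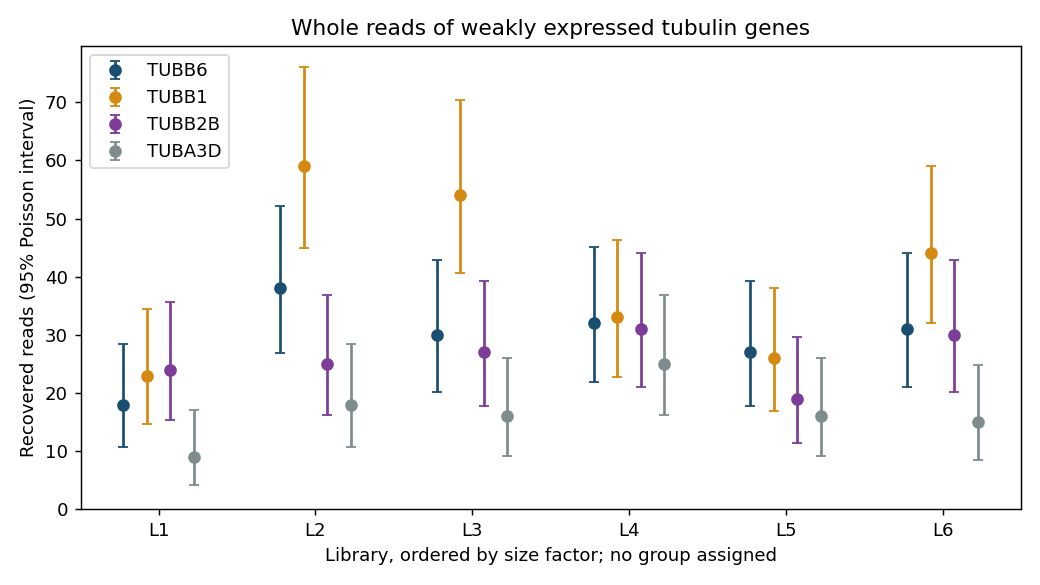
Reads recovered for TUBB6, TUBB1, TUBB2B and TUBA3D in each of the 6 libraries, which are ordered by size factor and carry no group; bars are 95% exact Poisson intervals. TUBB6 ranges from 18 reads in L1 to 38 in L2, and TUBB2B from 19 to 31.

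Of 24 listed genes with recovered reads, TUBB1, MAP1B and CD34 had the highest Pearson correlation with TUBB6 over the 6 libraries, on reads divided by size factor. Pearson's r was 0.79 for TUBB1 (Spearman's rho 0.77), 0.78 for MAP1B (rho 0.66) and 0.71 for CD34 (rho 0.89). Without the 2 libraries farthest from the median of TUBB6, r was 0.39, 0.36 and 0.91, and it was then higher for TUBB2B (0.97) and TUBA8 (0.96) than for any of these 3. TUBA3D had a rho of 0.77, above that of MAP1B, so the order depended on the measure. AGBL1 had a negative r of -0.88 (rho -0.94), larger in size than any positive one, and of -0.92 without those 2 libraries. The genes named are the extremes of the 24 compared, and how high r runs by chance at such counts was not tested. SPINK2 itself had an r of 0.66 (rho 0.49). These are descriptions of 6 libraries that share 1 cell line and hold few reads of each gene. With 3 libraries of shNEG and 3 of shSPINK2 pooled, a part of the shRNA in these values was not tested.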

How the data were processed

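The authors sequenced RNA of FUJIOKA cells, aligned the reads to GRCh38 (hg38) with STAR 2.7.11, counted them per gene with featureCounts and ran DESeq2 1.40.0. The annotation release, the strand setting, the total reads per library and the time on doxycycline are not given in the sources used here. The deposited table gives 1 signal value per gene, which the authors made by scaling counts with DESeq2 size factors and averaging over the 6 libraries. It also holds 6 columns of the authors' own comparison (fold change, its error, statistic, p-value, adjusted p-value and status), which were not used. Without them there are no values per group, so shSPINK2 and shNEG were not compared and the planned count test was not run.

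Lengths, positions and transcripts came from GENCODE 44, which matched 91.1% of gene IDs holding 99.9% of the summed mean. Where a name had several IDs, the row with the highest mean was taken. Proteins were translated from canonical coding sequences and aligned globally with Biopython 1.88 (match 2, mismatch -1, gap opening -5, gap extension -1). Windows were compared with all transcripts on the same strand. Whole reads were solved from means given to 15 digits, with size factors taken from genes with few reads. In a test on simulated data with the true size factors supplied, 40 of 40 genes were recovered. The estimation of the size factors from genes with few reads was not part of that test. Poisson intervals were computed with scipy 1.17.1.

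The members and gene lists were chosen with earlier results of these data known. The genes named are the members, SPINK2, the highest gene of each list, family genes with a mean of at least 10, listed genes with recovered reads, those most like TUBB6, the highest 3 pseudogenes and genes that share windows with a member. COL1A1, KIT, STMN2, TUBA3C, TUBAL3, MAPRE1, MZT2B and the overlapping neighbours were added after their values were seen. The highest gene of each list was chosen by mean, not per length. Some sequences and 1 marker gene are not reported here.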

Additional observations from a re-analysis of the deposited data

How the results depend on the processing

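The ratio of beta to alpha tubulin, 1.35 with merged exons, was 0.972 with the canonical transcript, 1.26 with coding length, 1.25 with no division by length and 0.820 with unshared windows, an alternative added after seeing the data. The share of TUBA1B was 76.9%, 71.6%, 71.7% and 79.9% under the same choices, and that of TUBB 70.8%, 79.6%, 79.6% and 70.0%. The median percent of shared windows over the members, 1.51 at 150 bases, was 5.79 at 75 bases, 3.69 at 100, 0 at 300, 0.810 against protein-coding genes only and 4.45 in canonical transcripts only. For TUBB6 the highest library over the lowest was between 1.42 and 2.08 with each library left out in turn. All 30 levels of single genes recomputed with another length were higher than with merged exons, by 1.30 to 14.0 times. That direction was fixed in advance, because each of the other lengths is shorter than the merged exons. The number of members above the 90th percentile, the recovered reads at a tolerance 10 times wider and the median protein identity without gaps kept their values within the limits set. The alternatives of the group comparison were not run, since the file gives no counts per library that the labels tie to a group. No paired analysis was possible because no value used here belongs to a labelled replicate. TUBB6 and other weakly expressed genes had few reads per library at the depth used, 18 to 38 for TUBB6.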

Other observations

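The reads of SPINK2 fell into separate ranges over the 6 libraries, which carry no label here: 6 in L1, 9 in L5 and 7 in L6, and 53 in L2, 63 in L3 and 56 in L4. CD34, a marker of blasts, had 11, 23, 22, 31, 13 and 18 reads in L1 to L6. The pseudogene TUBAP2 had 36, 69, 76, 59, 60 and 49 reads, and TUBBP2 21, 31, 27, 39, 22 and 21. AGBL1, of the enzymes that trim tubulin tails, had 11, 2, 4, 3, 10 and 3 reads.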
